A study of Homo sapiens with 18 samples.

Results

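RNA sensors and interferon signalling factors were followed as a set of 9 genes out of 35933 genes with values in the deposited table. The set was given by symbol, and all 9 genes (RIGI, IFIH1, DHX58, TLR3, EIF2AK2, ADAR, STAT2, IRF7 and IRF9) were found and passed the filter on low values in every comparison. They were measured by RNA sequencing in 3 human breast epithelial lines of the MCF10 progression model: MCF10A, which is spontaneously immortalized and not tumorigenic, MCF10AT1, which was derived from it with a mutated HRas, and MCF10CA1h, which was derived further by passage through mouse xenografts. Each line carried either a negative control CRISPR construct or one against exon 1 of METTL3, the catalytic subunit of the enzyme that writes N6-methyladenosine (m6A) in mRNA, and replicates a, b and c of each of the 6 groups gave 18 libraries. All 6 groups went through transfection, sorting for a fluorescent marker and single-cell cloning, and the replicates of a group are samples of 1 such CRISPR line, so p-values measure the spread between samples of a line and not between clones. The values are normalized counts, a signal on a scale shared by the libraries but not corrected for gene length, so levels are compared between groups and not between genes.

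These genes belong to the system by which cells detect double-stranded or otherwise foreign-looking RNA. RIG-I and MDA5 (encoded by RIGI and IFIH1) sense RNA in the cytosol, LGP2 (DHX58) modulates them, and TLR3 senses double-stranded RNA in endosomes. Signals from the sensors induce interferons, and interferons act through factors that include STAT2 and IRF9 on a set of genes that includes the sensors themselves. PKR (EIF2AK2) stops translation when it binds double-stranded RNA, and ADAR edits double-stranded RNA so that it is less visible to MDA5. Loss of m6A has been proposed to expose the cell's own RNA to these sensors. Neither m6A nor the exposure of RNA to the sensors was measured in these data, so that proposal was not tested.

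Promoter sequence is shown for the genes whose window held the core of the interferon-stimulated response element, the DNA element read by the complex that holds STAT2 and IRF9. RefSeq windows (GRCh38.p14) from 250 bases before to 50 bases after the transcription start were at hand for 7 of the 9 genes and did not include DHX58 or IRF7. The letters GAAANNGAA, searched on both strands, were found in the windows of 3 of these 7 genes, IFIH1, TLR3 and EIF2AK2. They were found for 9.86% of all 27305 genes with a window (8.11% of all 35116 windows). Each sequence runs in the direction of transcription, with the matches in capitals:

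IFIH1, chr2:162318677-162318868, minus strand: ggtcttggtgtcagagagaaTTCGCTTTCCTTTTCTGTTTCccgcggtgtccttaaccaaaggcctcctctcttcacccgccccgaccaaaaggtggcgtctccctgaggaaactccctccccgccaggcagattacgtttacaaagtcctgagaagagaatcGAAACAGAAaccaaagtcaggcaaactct

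TLR3, chr4:186069133-186069181, plus strand: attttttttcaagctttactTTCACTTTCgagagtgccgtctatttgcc

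EIF2AK2, chr2:37156958-37157006, minus strand: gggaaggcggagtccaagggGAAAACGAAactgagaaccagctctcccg

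IFIH1 had 4 matches, which began at -164, -158, -152 and -21 relative to the start base, and the second overlaps both the first and the third. The single matches of TLR3 and EIF2AK2 began at -3 and -6. The windows of RIGI, ADAR, STAT2 and IRF9 did not hold these letters. The letters TTCNNNGAA of the gamma-activated site, which read the same on both strands, occurred in the windows of TLR3 and IRF9. They occurred for 9.38% of all genes with a window (7.66% of all windows). A match describes the letters in a window and does not show that a factor binds there.

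The study reported less METTL3 protein by Western blot in each line, with only a moderate loss in MCF10CA1h. It also reported a significant decrease of m6A in MCF10AT1 and MCF10CA1h and a non-significant one in MCF10A. Neither protein nor m6A was measured in these data. By real-time PCR the study reported less METTL3 mRNA in the knockdown lines, with a smaller effect than on the protein. METTL3 RNA in these libraries did not follow the label in every line, and its MCF10A means ran against that report. Its level in the libraries labelled knockdown was 128% of the control mean in MCF10A, 88.5% in MCF10AT1 and 70.8% in MCF10CA1h, with p = 0.3, 0.3 and 0.1 in exact permutation tests (two-sided), 0.1 being the lowest that 3 libraries against 3 can reach. In the limma fit of each line alone it passed the threshold in MCF10CA1h (log2 fold change -0.49, adjusted p = 0.0234, but 0.501 in the joint fit of all lines), so groups are called by their labels throughout. Library sums lay between 21347352 and 31681834 normalized counts, and the depth behind a single gene is unknown. In the MCF10AT1 libraries labelled knockdown, 6 of 10 epithelial markers were lower (CDH1 by a log2 fold change of -6.79, ESRP1 by -8.89) and 5 of 8 tested mesenchymal markers were higher (FN1 by 10.08, THY1 by 9.61). Their summed mesenchymal level was 117723 to 206145, against 3248 to 4764 in the control of that line, and the part of this change in the results for that line was not tested. In MCF10CA1h 3 of 9 tested epithelial markers rose (KRT14 by 2.15) and of 8 tested mesenchymal markers 1 rose (FN1, 1.92) and 1 fell (COL3A1, -1.22), with the summed mesenchymal level at 27230 to 32054 in the control and 39374 to 50892 in the labelled knockdown and the epithelial sum at 314955 to 342974 and 415931 to 445137. The immune marker CD68 rose there (1.05) and CD14 (-1.14) and the endothelial PECAM1 (-1.20) fell. In MCF10A the mesenchymal sum was 8799 to 15877 in the control and 5359 to 8044 in the labelled knockdown, and the epithelial sum was 170261 to 205036 and 255570 to 302579. KRT5 made up most of that epithelial sum, with means of 101080 in the control and 188573 in the labelled knockdown. It was the only 1 of 9 tested epithelial markers past the threshold (0.90), and their median log2 fold change was -0.09. The part of these differences in the results for MCF10CA1h and MCF10A was not tested. The 6 immune markers in the table summed to 319 to 2965, most in the MCF10AT1 labelled knockdown, with PTPRC and CD3E listed at 0 in every library of that group and of the MCF10CA1h control. The 3 endothelial markers summed to 17.7 to 861.

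The sign of the fold changes differed between the lines for every gene of the set but TLR3, although most did not pass outside MCF10CA1h. TLR3 had positive log2 fold changes in MCF10A (0.34), MCF10AT1 (2.74) and MCF10CA1h (0.91). Each arm of a line is 1 CRISPR line, so line and clone cannot be told apart here. In MCF10CA1h, 8 of the 9 genes rose in the libraries labelled METTL3 knockdown, with a median log2 fold change of 2.12 over the 9 genes. That count compares with 12.8% of all tested genes differentially expressed in either direction and 7.91% higher. In MCF10A, 1 of the 9 genes was differentially expressed, IRF9, which fell, while 8 of the 9 had negative fold changes with a median of -1.41. The background there was 2.65% of genes differentially expressed. With the replicate letter as a block IFIH1, IRF7 and IRF9 passed, against 7.6% of all genes. In MCF10AT1 none of the 9 passed the threshold in limma (2 did in the joint fit of all lines), 4 had an unadjusted p under 0.05, and the background was 13% of genes. With the replicate block TLR3 and EIF2AK2 passed there, against 24.5% of all genes. Over all tested genes the median log2 fold changes of MCF10CA1h, MCF10A and MCF10AT1 were -0.02, -0.00 and 0.02. Bulk RNA cannot tell a change in the RNA per cell from a change in the share of cells that express a gene.

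**Figure D1:**
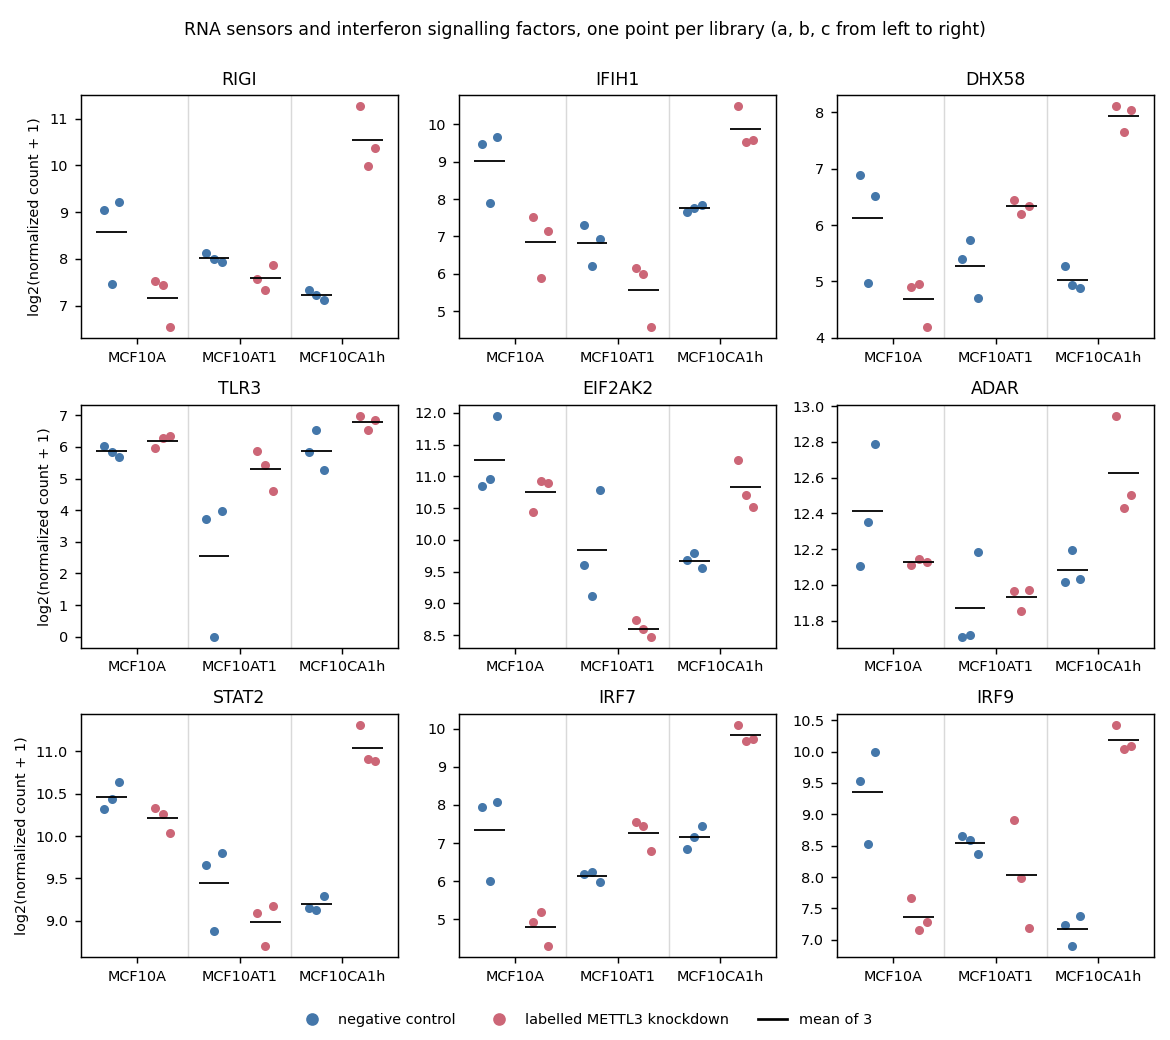
Level of each of the 9 genes as log2(normalized count + 1) on the vertical axis, one point per library, with the black line at the mean of 3 and the negative control and labelled knockdown of each line side by side. In MCF10CA1h the labelled knockdown libraries lie above all control libraries for every gene but TLR3, whereas in MCF10A control replicate b lies below the other control libraries for RIGI, IFIH1, DHX58, IRF7 and IRF9.

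RIGI (ENSG00000107201, chr9:32455302-32526208 in hg38) had the widest change among the sensors in MCF10CA1h. Its normalized counts there were 160, 148 and 138 in control replicates a, b and c and 2459, 1010.2 and 1331 in the libraries labelled knockdown. The groups did not overlap, and the fitted rise was 9.96-fold (log2 fold change 3.32 ± 0.27 SE, adjusted p = 7.0e-05). The MCF10A values ran the other way, with 529.6, 176 and 594 in the control and 184, 172 and 91.8 in the labelled knockdown. Control replicate b lay within the knockdown range, so the groups overlapped, and the fold change of -1.41 ± 0.48 did not pass (adjusted p = 0.171). MCF10AT1 held 277, 253 and 243 in the control against 188, 160.0 and 231 (log2 fold change -0.43 ± 0.32, adjusted p = 0.423), a small difference in which the groups were apart but the test was not passed. Exons of an unnamed gene on the same strand overlap RIGI, and pseudo-alignment may have divided reads between them.

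IFIH1 (ENSG00000115267, chr2:162267074-162318684) encodes MDA5, the sensor of long double-stranded RNA. In MCF10CA1h it was listed at 200.2, 215 and 230.2 in the control and at 1429, 738 and 771 in the labelled knockdown, a 4.33-fold rise (log2 fold change 2.12 ± 0.23 SE, adjusted p = 3.5e-04). The rise missed the threshold in the joint fit of the 18 libraries (adjusted p = 0.0566). MCF10A showed the opposite order without overlap, from 712, 239 and 804 in the control to 182, 57.8 and 139 (log2 fold change -2.17 ± 0.55, adjusted p = 0.0837). With the replicate letter as a block this difference passed (adjusted p = 0.00289), as it did in the joint fit (adjusted p = 0.028). In MCF10AT1 the labelled knockdown (70.4, 62.7 and 22.7) was also below the control (156, 73.0 and 122) in every library, yet the test was not passed (log2 fold change -1.24 ± 0.56, adjusted p = 0.193).

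DHX58 (ENSG00000108771, chr17:42101404-42112714) encodes LGP2, which lacks the signalling domains of the other RIG-I-like receptors. Its MCF10CA1h values went from 37.8, 29.5 and 28.4 to 274, 199 and 262, a 7.46-fold rise with a narrow spread (log2 fold change 2.90 ± 0.23 SE, adjusted p = 6.7e-05). The MCF10A control held 117, 30.2 and 90.1 and the labelled knockdown 28.9, 30.0 and 17.2, with replicate b of the control barely above the highest knockdown library (log2 fold change -1.44 ± 0.53, adjusted p = 0.202). In MCF10AT1 the 3 labelled knockdown libraries (86.2, 72.5 and 80.1) were all above the control (41.0, 52.1 and 25.1). That difference did not pass the test (log2 fold change 1.05 ± 0.45, adjusted p = 0.175), so DHX58 and RIGI, called together in MCF10CA1h, had fold changes of opposite sign in MCF10AT1.

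TLR3 (ENSG00000164342, chr4:186068911-186088073), the endosomal sensor, was the exception in MCF10CA1h. Control libraries there held 56.6, 91.5 and 37.4 and the labelled knockdown 125, 90.9 and 115, so that control replicate b lay just above the lowest knockdown library. The log2 fold change of 0.91 ± 0.32 did not pass (adjusted p = 0.0917), and it passed without control replicate b (1.23, adjusted p = 0.0263). In MCF10A the gene was level across the arms, at 64.8, 56.6 and 50.8 against 61.7, 76.6 and 80.2 (log2 fold change 0.34, with a 95% confidence interval from -0.31 to 0.98). MCF10AT1 stood apart, since its control libraries were at 12.1, 0 and 14.5 and its labelled knockdown at 57.1, 41.9 and 23.1. The fitted difference of 2.74 ± 1.07 did not pass (adjusted p = 0.141), although it did with the replicate block (adjusted p = 0.0447) and in the joint fit (adjusted p = 0.00882). The difference moved to between 1.46 and 3.44 when single libraries were left out, control replicate b being listed at 0.

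EIF2AK2 (ENSG00000055332, chr2:37099210-37157522) encodes PKR, the kinase that phosphorylates the initiation factor eIF2 on double-stranded RNA. In MCF10CA1h it rose from 817, 884 and 749 to 2449.7, 1672 and 1458, or 2.23-fold (log2 fold change 1.15 ± 0.17 SE, adjusted p = 0.00248, but 0.144 in the joint fit). In MCF10AT1 the sign was reversed, with 776, 556 and 1753 in the control and 425, 384 and 355 in the labelled knockdown. Those groups did not overlap, and the log2 fold change of -1.23 ± 0.43 passed with the replicate block (adjusted p = 0.0225) and not without it (adjusted p = 0.0997). It also passed without control replicate b (-1.59, adjusted p = 0.0367) and in the joint fit (adjusted p = 0.0133). The MCF10A arms overlapped, at 1831, 1985 and 3962 against 1383, 1941 and 1911 (log2 fold change -0.50 ± 0.30, adjusted p = 0.429). GPATCH11 and a pseudogene lie on the opposite strand over parts of its exons.

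ADAR (ENSG00000160710, chr1:154581695-154628013), the enzyme that converts adenosine to inosine in double-stranded RNA, had the smallest of the called changes in MCF10CA1h. Its MCF10CA1h values were 4136, 4689 and 4185 in the control and 7889, 5510.3 and 5796 in the labelled knockdown. There was no overlap, and the rise of 1.46-fold passed the test (log2 fold change 0.54 ± 0.13 SE, adjusted p = 0.0247), but not without control replicate a (0.51, adjusted p = 0.093) or c (0.52, adjusted p = 0.0735), without the intensity trend (adjusted p = 0.108) or in the joint fit (adjusted p = 0.229). In MCF10A the labelled knockdown libraries were within 4415 to 4533 and the control spanned 4403 to 7063 (log2 fold change -0.29, adjusted p = 0.468). In MCF10AT1 the control held 3349, 3370 and 4644 and the labelled knockdown 4000.2, 3694 and 4013, a log2 fold change of 0.06 whose sign turned to -0.10 with equal sums per library. The transcripts of ADAR from its interferon-responsive promoter were not separated from the others in this gene-level table.

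STAT2 (ENSG00000170581, chr12:56341597-56360203) carries the transactivation domain of the complex that interferon assembles. In MCF10CA1h it went from 570, 560.4 and 626 in the control to 2533, 1927 and 1888, a 3.58-fold rise and among the most uniform of the set (log2 fold change 1.84 ± 0.13 SE, adjusted p = 4.1e-05). In MCF10A it held 1280, 1388 and 1587 against 1289, 1220.2 and 1048, with overlap (log2 fold change -0.26 ± 0.16, adjusted p = 0.438). The MCF10AT1 values of 804, 472 and 888 against 546, 415 and 579 overlapped as well (log2 fold change -0.45 ± 0.33, adjusted p = 0.426). STAT2 thus differed between arms beyond its spread in MCF10CA1h, and in the other lines the intervals were -0.62 to 0.10 and -1.22 to 0.31.

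IRF9 (ENSG00000213928, chr14:24161234-24168043), the DNA-binding partner of STAT2, was the one gene differentially expressed in both MCF10A and MCF10CA1h, with opposite signs. MCF10CA1h rose from 150.2, 118 and 165 to 1369, 1053 and 1093, or 8.08-fold (log2 fold change 3.01 ± 0.17 SE, adjusted p = 1.8e-05). MCF10A fell from 736, 368 and 1020.2 to 202, 141 and 155, or 3.95-fold (log2 fold change -1.98 ± 0.36, adjusted p = 0.0333). That fall was not past the threshold without control replicate c (adjusted p = 0.0721) or without replicate a, b or c of the labelled knockdown (adjusted p = 0.0929, 0.107 and 0.122), and it was with the replicate block (adjusted p = 0.00656). MCF10AT1 libraries labelled knockdown were spread from 145 to 477 around the control values of 404, 383 and 329 (log2 fold change -0.51 ± 0.45, adjusted p = 0.505). Exons of unnamed genes on both strands overlap IRF9, and its reads may be shared with the one on the same strand.

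IRF7 (ENSG00000185507, chr11:612553-615983), the factor that amplifies type I interferon transcription, had group means from 27.8 to 914. Its MCF10CA1h values were 115, 141 and 173 in the control and 1087, 813 and 842 in the labelled knockdown, a 6.39-fold rise (log2 fold change 2.67 ± 0.18 SE, adjusted p = 3.3e-05). In MCF10A the control held 244, 63.6 and 268 and the labelled knockdown 29.3, 35.3 and 18.7, and every knockdown library was below every control library. The log2 fold change of -2.54 ± 0.56 missed the threshold (adjusted p = 0.0589), and passed it with the replicate block (adjusted p = 0.0289), in the joint fit (adjusted p = 0.00261), with no filter on low values (adjusted p = 0.0377) and without control replicate b (-3.20, adjusted p = 0.0276). In MCF10AT1 the order was that of MCF10CA1h, from 72.5, 74.5 and 62.5 to 187, 174 and 110.1, with a log2 fold change of 1.13 ± 0.39 that did not pass (adjusted p = 0.0977).

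**Figure D2:**
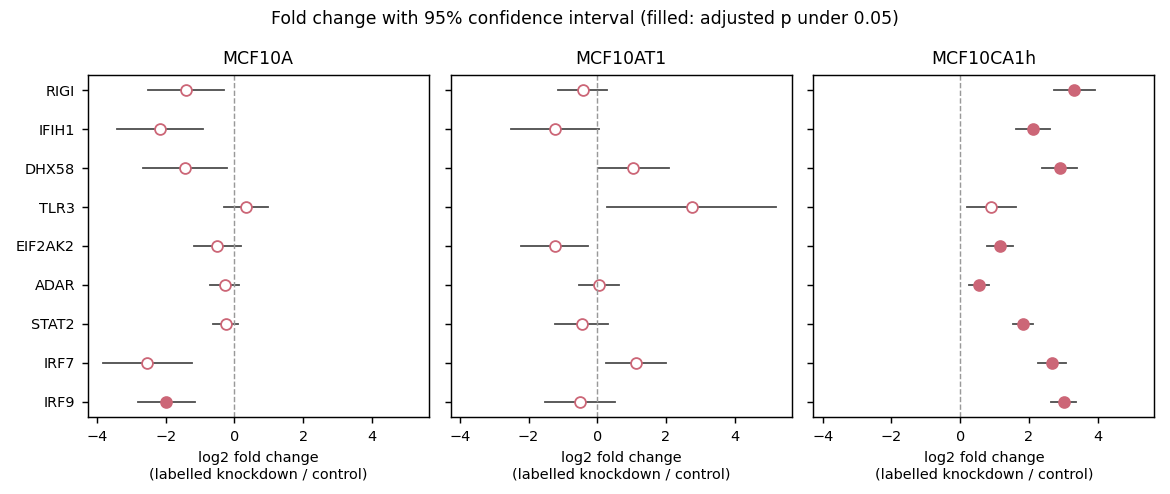
Log2 fold change of the libraries labelled METTL3 knockdown over the negative control (horizontal axis) for each gene in each line, as points with 95% confidence intervals, filled where the adjusted p was under 0.05. The 8 filled points of MCF10CA1h lie between 0.54 and 3.32, the single filled point of MCF10A is IRF9 at -1.98, and MCF10AT1 has points on both sides of 0. The fits shown did not use the replicate letter as a block.

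Separation of the groups gave a similar picture in MCF10CA1h, while in MCF10A and MCF10AT1 more genes were apart than were called. All 3 knockdown libraries were above all 3 control libraries for 8 of the 9 genes in MCF10CA1h, where 32.7% of all tested genes did not overlap in one direction or the other. In MCF10A 4 genes were apart, all lower, against 23.9% of tested genes. MCF10AT1 had 3 apart and higher (DHX58, TLR3 and IRF7) and 3 apart and lower (RIGI, IFIH1 and EIF2AK2), against 32.8% of tested genes. With the replicate letter as a block, 3 genes were differentially expressed in MCF10A (IFIH1, IRF7 and IRF9, against 7.6% of all genes with the block), 2 in MCF10AT1 (TLR3 and EIF2AK2, against 24.5%) and 8 in MCF10CA1h (against 12.4%). A joint fit of the 18 libraries, which shares one estimate of the spread, gave 3, 2 and 5 genes. The share of all genes called in that fit was not determined, so these counts have no background beside them.

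Whether the effect of the labelled knockdown differed between lines was tested as an interaction in that joint fit. Between MCF10CA1h and MCF10A it differed for 6 of the 9 genes, all more positive in MCF10CA1h, where 5.34% of all genes differed and 3.65% were more positive. These were IRF7 (difference of log2 fold changes 5.21 ± 0.61 SE), IRF9 (5.00 ± 0.53), RIGI (4.73 ± 0.58), DHX58 (4.34 ± 0.60), IFIH1 (4.29 ± 0.74) and STAT2 (2.10 ± 0.31), with adjusted p from 6.6e-05 for IRF9 to 0.00252 for IFIH1. EIF2AK2 (1.65, adjusted p = 0.0680) and ADAR (0.83, adjusted p = 0.0841) did not pass, although EIF2AK2 did with the replicate block (adjusted p = 0.0362), and the interval for TLR3 ran from -1.62 to 2.76.

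Against MCF10AT1 the effect in MCF10CA1h was more positive for 6 genes, while 18.2% of all genes differed and 9.67% were more positive. RIGI (3.75), IRF9 (3.53), IFIH1 (3.36), EIF2AK2 (2.39) and STAT2 (2.29) had adjusted p of 0.00419 or less, and DHX58 (1.85, adjusted p = 0.0423) was no longer past the threshold when any of 12 single libraries was left out (adjusted p = 0.0508 to 0.0938). Between MCF10AT1 and MCF10A the effect differed for 2 genes, IRF7 (3.66 ± 0.61, adjusted p = 3.4e-04) and DHX58 (2.49 ± 0.60, adjusted p = 0.00658), a share of the 9 near the 21.6% of all genes that differed. IRF9 (1.47, adjusted p = 0.0607) passed with the replicate block (adjusted p = 0.0211). Without MCF10A control replicate b the count was 4, with RIGI (1.54, adjusted p = 0.0305) and IRF9 (1.88, adjusted p = 0.0141) as well. Each pair of these differences shares the libraries of a line, so they are not independent of each other.

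The negative control lines, which carried no construct against METTL3, also differed in some of these genes. Relative to the MCF10A control, the MCF10AT1 control had lower TLR3 (log2 fold change -3.31 ± 0.92 SE, adjusted p = 0.0277), IFIH1 (-2.20 ± 0.46, adjusted p = 0.00997), EIF2AK2 (-1.42 ± 0.42, adjusted p = 0.0345) and STAT2 (-1.02 ± 0.25, adjusted p = 0.0179). That is 4 of 9 genes, all lower, with 28.1% of all genes differing between these controls and 14.7% lower. The MCF10CA1h control was below the MCF10A control for IRF9 (-2.18 ± 0.35, adjusted p = 0.00167), EIF2AK2 (-1.58 ± 0.42, adjusted p = 0.0163), RIGI (-1.35 ± 0.41, adjusted p = 0.0272) and STAT2 (-1.27 ± 0.25, adjusted p = 0.00432). That is again 4 of 9 genes, a share near the 37.8% of all genes that differed, with 18.8% lower. Without MCF10A control replicate c these counts were 1 and 2, and the second was also 2 without MCF10CA1h control replicate a or c. Of the calls in MCF10AT1, TLR3 was lost without any 1 of the 3 MCF10A control libraries (adjusted p = 0.0529 to 0.0836), STAT2 without replicate b or c of that control (0.0628 and 0.0721) and EIF2AK2 without any 1 of 7 libraries (0.0543 to 0.129). The TLR3 difference ran from -4.01 to -2.03 with single libraries left out, MCF10AT1 control replicate b being listed at 0. In MCF10CA1h, RIGI was lost without any 1 of 5 libraries (0.0672 to 0.103) and EIF2AK2 without any 1 of 3 (0.0516 to 0.0635).

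Between the MCF10CA1h and MCF10AT1 controls 2 of the 9 genes differed, a share near the 21.8% of all genes that differed. TLR3 was higher in MCF10CA1h (3.33 ± 0.92, adjusted p = 0.0295) and IRF9 was lower (-1.37 ± 0.35, adjusted p = 0.0222). Neither call was kept when any one MCF10CA1h control library was left out, and without MCF10AT1 control replicate a only TLR3 was past the threshold. The TLR3 difference ran from 2.05 to 4.03 with single libraries left out, MCF10AT1 control replicate b being listed at 0. Without MCF10A control replicate b, which enters through the shared estimate of spread alone, 4 genes passed, with IRF7 (1.01, adjusted p = 0.0385) and RIGI (-0.79, adjusted p = 0.0422) added. These control comparisons share libraries with each other and with the comparisons of the arms.

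The order of the 6 groups placed the MCF10CA1h labelled knockdown at the top for 8 of the 9 genes, with EIF2AK2 highest in the MCF10A control (mean 2593 ± 1188, SD, n = 3, against 1860.0 ± 522). For RIGI, DHX58, STAT2, IRF7 and IRF9 the lowest library of that top group was above every library of the other groups. For TLR3 it (90.9) was above the next group by mean but below the highest library of the MCF10CA1h control (91.5). For IFIH1 the range of the top group (738 to 1429) overlapped that of the MCF10A control (239 to 804), and for ADAR and EIF2AK2 the first 2 groups overlapped as well. The bottom place was held by the MCF10AT1 labelled knockdown for IFIH1, EIF2AK2 and STAT2, by the MCF10AT1 control for TLR3 and ADAR, by the MCF10A labelled knockdown for DHX58 and IRF7, and by the MCF10CA1h control for RIGI and IRF9. For RIGI the last 2 groups had nearly equal means of 149, with ranges of 91.8 to 184 in the MCF10A labelled knockdown and 138 to 160 in the MCF10CA1h control.

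Single libraries moved many of the genes together. MCF10A control replicate b was the lowest of its group for 5 of the 9 genes (RIGI, IFIH1, DHX58, IRF7 and IRF9), with a median log2 difference from the other two replicates of -1.23 over the 9 genes. The same difference was -1.30 over 30 interferon-stimulated genes and -0.00 over all genes with a mean of at least 50. MCF10CA1h labelled knockdown replicate a was the highest of its group for 9 of 9 genes, by a median of 0.41, with 0.71 over the interferon-stimulated genes and -0.01 over all genes. Without that library the MCF10CA1h comparison still had 8 of the 9 genes differentially expressed. Without MCF10A control replicate b the MCF10A comparison had 2, IRF7 and IRF9. The spread within the MCF10CA1h control was small by comparison, with a range of 138 to 160 for RIGI against 176 to 594.4 in the MCF10A control.

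**Figure D3:**
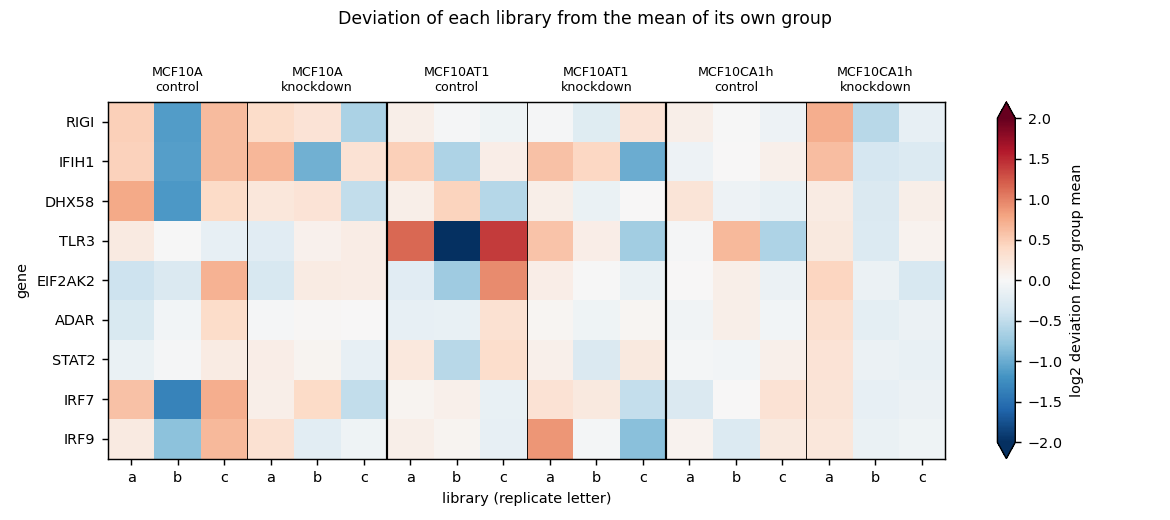
Log2 deviation of each library (columns, grouped by line and arm) from the mean of its own group for the 9 genes (rows), in red where higher and blue where lower, with the scale ending at 2 in either direction. The column of MCF10A control replicate b is on the blue side for all 9 genes, and is the lowest of its group for 5, the column of MCF10CA1h labelled knockdown replicate a is red for all 9, and the darkest cell is TLR3 in MCF10AT1 control replicate b, which was listed at 0.

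Across the 18 libraries the 36 pairs of these genes had Pearson correlations of log2(normalized count + 1) from 0.09 to 0.90, with a median of 0.62. After subtracting group means the range was -0.27 to 0.86 and the median 0.32. These are descriptions over 18 libraries that share their groups, and no test was made. DHX58 and IRF7 were the closest pair (0.90), and TLR3 had the lowest median correlation with the other genes (0.37).

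Among 12460 genes with a mean of at least 50, those most like RIGI were PARP9 (r = 0.951), PARP12 (0.936) and IFIT1 (0.907), and those most like IFIH1 were HELZ2 (0.915), OAS1 (0.894) and OAS3 (0.889). IFI44L (0.938), IFI6 (0.905) and IRF7 (0.904) were nearest to DHX58. IFIT3 (0.946), ISG15 (0.943) and IFI6 (0.928) were nearest to IRF7, and IFI6 (0.901), PARP9 (0.901) and RIGI (0.887) to IRF9. The 3 genes nearest to STAT2 included DTX3L (0.923) and SAMD9 (0.914), and ADAR most resembled DDX60 (0.894), DTX3L (0.884) and ATF6 (0.865). The nearest genes of EIF2AK2 were CREB1 (0.950), PANX1 (0.938) and SAMD9 (0.936), and those of TLR3 were ZNF597 (0.926), TPRG1 (0.904) and NUAK2 (0.903). TLR3 is the one gene of the set whose 3 nearest genes hold no other member of the lists used here for interferon-stimulated or pathway genes, and PARP12, HELZ2, ATF6, CREB1 and PANX1 are also outside them.

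The other genes of the pathway were described by role from a list of 72. In MCF10CA1h, 19 of 65 tested genes rose and 1 fell, 20 in all, with a median log2 fold change of 0.19 over the tested genes (11 called in the joint fit). Those 20 are set against 12.8% of all tested genes in either direction and 7.91% higher. The kinases JAK1, JAK2 and TYK2 did not pass. Of the double-stranded RNA enzymes and their relatives 4 of 10 rose, led by OASL (3.45) and OAS1 (2.69), which makes the activator of RNase L. Sensor cofactors rose in 5 of 10 cases, among them LGALS9 (3.42) and the helicase DDX60 (3.07). The ubiquitin-like modifier ISG15 (4.83) and its protease USP18 (2.42) were the 2 of 12 regulators that rose.

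Of the adaptors in MCF10CA1h 3 of 7 rose, with MYD88 at 1.15 and MAVS, the mitochondrial adaptor of RIG-I and MDA5, at 0.44. Of the kinases IKBKE rose by 0.80, CHUK fell by 0.52 on the log2 scale, and TBK1 did not pass (-0.02, with a confidence interval from -0.27 to 0.23). Of the 5 other interferon regulatory factors 0 passed in limma and 1, IRF3 (0.31, adjusted p = 0.121), had an unadjusted p under 0.05. Of the 6 receptor chains 0 passed by either measure, with log2 fold changes from -0.20 for IFNGR1 to 0.16 for IFNLR1. The DNA sensing factors SAMHD1 (2.40) and IFI16 (0.60) rose, while CGAS was at -0.23 (adjusted p = 0.283).

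Of the 7 interferons in the list, 6 were at 45.5 normalized counts or less in every library. The exception was IFNE, an interferon of epithelia, which was at 43.1 to 89.8 in MCF10A, at 5.42 to 17.5 in MCF10CA1h, and in MCF10AT1 at 19.6, 50.7 and 16.3 in the control and 123, 222 and 321 in the labelled knockdown. IFNL1, a type III interferon, was listed at 0, 1.77 and 6.20 in the MCF10CA1h control and at 40.8, 22.2 and 45.5 in the labelled knockdown (log2 fold change 3.71 ± 0.72 SE, adjusted p = 0.00827). With means of 2.66 and 36.2, IFNL1 passed the filter only through the labelled knockdown, so its call is no independent support. It is among the 19 pathway genes counted as higher in that line. IFNB1 was listed at 0 in all MCF10CA1h control libraries and at 6.09, 1.16 and 7.73 in the labelled knockdown. IFNL2 (9.12, 18.5 and 18.3) and IFNL3 (6.92, 10.7 and 8.44) were also at 0 in every control library of that line, and the near identity of these 2 genes makes the division of reads between them uncertain. These 3 genes were below the filter and were not tested. In MCF10A and MCF10AT1 no value of IFNB1, IFNL1 or IFNL3 was above 0.96, IFNL2 was at 3.71, 0 and 2.78 in the MCF10A control and at 0 in the other groups of these lines, and IFNK was above 0 in 1 library (1.86). IFNA1 was at 2.99 to 9.84 in MCF10A, and in MCF10AT1 at 0 in the control and at 0, 10.2 and 24.6 in the labelled knockdown.

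In the other lines pathway genes moved in both directions, and how many passed depended on the fit. MCF10A had 2 of 64 differentially expressed (3.12%, near the 2.65% of all genes), OASL, which fell by 3.31 on the log2 scale, and the type III interferon receptor chain IFNLR1, which rose by 3.26, and both calls were lost when any one labelled knockdown library was left out. The count was 7 without control replicate a, 1 without control replicate c and 10 with the replicate block. IFNLR1 had means of 7.14 in the MCF10A control and 70.8 in the labelled knockdown, and passed the filter only through the latter. MCF10AT1 had 11 of 64, 8 higher and 3 lower, or 17.2% against 13% of all genes (21 with the replicate block, against 20 in MCF10CA1h, and 27 in the joint fit, against 11 there, 5 without control replicate a and 6 without labelled knockdown replicate b). No share of all genes was determined for the joint fit. OAS2 (3.91), IFNE (2.97), IKBKE (2.60), SOCS3 (2.24), STING1 (1.80) and IKBKG (1.39) were among those that rose in MCF10AT1, and IRF5 (-2.56) and PNPT1 (-1.24) were among those that fell.

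**Figure D4:**
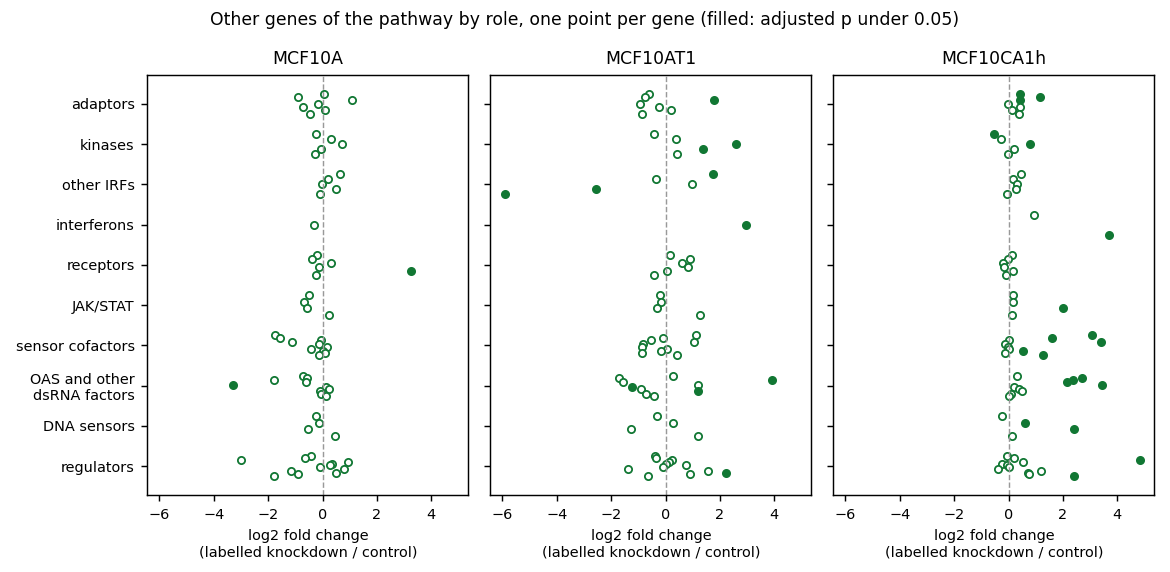
Log2 fold change of the labelled METTL3 knockdown over the negative control (horizontal axis) for the tested genes of the 72-gene pathway list, grouped by role (vertical axis), one point per gene, filled where the adjusted p was under 0.05. MCF10CA1h has 20 filled points, with ISG15 at 4.83 the farthest right, and MCF10A has 2, OASL at -3.31 and IFNLR1 at 3.26.

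A list of 32 interferon-stimulated genes outside the sensor set was counted in the same way. In MCF10CA1h 27 of 30 tested genes were higher (12.8% of all genes in either direction and 7.91% higher), with a median of 2.28, led by IFIT1 (5.93) and IFI27 (5.89), and LY6E, MX1 and SAMD4A were the 3 that did not pass (named after their values were seen). In MCF10A 4 of 30 were differentially expressed (2.65% of all genes), all lower, with a median of -1.05 over the tested genes, and IFI27 (-6.52) and BST2 (-5.55) led. In MCF10AT1 6 rose and 2 fell of 28 (13% of all genes in either direction), with a median of 0.27, and BST2 (9.03) and UBE2L6 (7.09) led. For comparison, the medians of the 9 sensor and signalling genes were 2.12, -1.41 and -0.43 in the same order of lines. The lists were chosen with earlier results of these libraries known, so their directions are not independent evidence.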

How the data were processed

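RNA from 18 libraries (6 groups of 3) had been made into stranded libraries by the authors after ribosomal RNA depletion, whereas polyA RNA is what the sample labels give, and which holds is open. Per the labels, reads were quantified with kallisto 0.46.1 against hg38 and normalized with DESeq2 1.26.0 in R 4.1.1. The deposited values are normalized estimated counts, a signal with no gene-length correction. Reads could not be recovered (12.1% to 44.1% of low values lay at whole multiples of the most frequent low value, within a relative tolerance of 0.01), so no count test was run and counting error is unknown. For 294 gene IDs the symbol went to another ID, and 39 had none.

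Fits used limma 3.58.1 in R 4.3.3 (lmFit, eBayes with intensity trend, two-sided) on log2(normalized count + 1) and kept genes whose mean normalized count in the fitted libraries reached 10. The added 1 shrinks the fold changes of low genes, but fitted values were not smaller in every case. TLR3 in MCF10AT1, with control replicate b at 0, had a fitted 6.66-fold difference against a ratio of means of 4.59. A gene low in one group could pass this filter through the other group alone, as IFNL1 did in MCF10CA1h and IFNLR1 in MCF10A. Each line was fitted alone, interactions in a joint fit of 18 libraries, controls in a fit of 9. Genes at a Benjamini-Hochberg adjusted p under 0.05 over all tested genes were called. Summaries used Python 3.11.15, pandas 2.3.3, NumPy 2.4.6 and SciPy 1.17.1. The fitting code was tested on simulated data. Coordinates and overlaps come from the GENCODE annotation of hg38.

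Replicate letters are in the titles. Deviations from group means correlated between same-letter libraries at 0.221, 0.200 and 0.116 (letters a, b, c) in MCF10A and 0.110, 0.289 and 0.477 in MCF10AT1, across 15897 genes, and at -0.011, 0.017 and 0.046 in MCF10CA1h. The letters were therefore taken to pair libraries in MCF10A and MCF10AT1, as read from the data.

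The 9 genes and the lists were chosen with earlier results of these data known. Named were the 9 genes, METTL3, up to the 2 largest called changes per role and line, the 2 largest of the interferon-stimulated and marker lists, the 3 genes most like each member, and single uncalled genes (JAK1, JAK2, TYK2, TBK1, CGAS, IRF3, IFNGR1, IFNLR1 in MCF10CA1h, LY6E, MX1, SAMD4A) added after their values were seen. Some genes of the lists were counted but are not reported here by name. Settings varied were the pseudocount (0.5 and 5), the minimum mean (none and 50), the intensity trend (off), the scaling (median-of-ratios factors, equal sums), the block by replicate letter, the threshold (0.01, or a log2 fold change of 1 besides), a joint fit, and single libraries left out in turn.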

Additional observations from a re-analysis of the deposited data

Results flagged for a closer look

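The effect of the labelled METTL3 knockdown differed between lines for 14 of 27 differences tested over the 9 genes, each flagged because the interaction term of the joint limma fit passed an adjusted p of 0.05. Over all genes 5.34% (MCF10CA1h minus MCF10A), 18.2% (MCF10CA1h minus MCF10AT1) and 21.6% (MCF10AT1 minus MCF10A) differed, and the 2 of 9 in the last are near that background. Between MCF10CA1h and MCF10A the differences of log2 fold changes were 4.73 for RIGI, 4.29 for IFIH1, 4.34 for DHX58, 2.10 for STAT2, 5.21 for IRF7 and 5.00 for IRF9. Between MCF10CA1h and MCF10AT1 they were 3.75 for RIGI, 3.36 for IFIH1, 1.85 for DHX58, 2.39 for EIF2AK2, 2.29 for STAT2 and 3.53 for IRF9. Between MCF10AT1 and MCF10A they were 2.49 for DHX58 and 3.66 for IRF7. Each line enters 2 of the 3 contrasts, METTL3 RNA was at 128% of control in MCF10A and at 88.5% in MCF10AT1, and every arm of a line is 1 CRISPR line, so the line, the clone and the construct cannot be told apart in these differences. Groups of 3 libraries are too small for a test of single outlying libraries.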

How the results depend on the processing

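Over the 9 genes, 1488 of 1589 values under the alternatives kept their direction and side of the threshold, 53 lost a call, 39 gained one and 9 changed sign, none of these 9 past the threshold. The sign of ADAR in MCF10AT1 turned to -0.10 with equal sums and to -0.02 without control replicate a or b, in a range of -0.02 to 0.22 with single libraries left out. Between the MCF10CA1h and MCF10A controls TLR3 turned to -0.00 with equal sums, -0.06 without MCF10A control replicate c and -0.31 without MCF10CA1h control replicate b (range -0.31 to 0.33), and IRF7 to 0.11 and 0.18 without MCF10A control replicate a or c (range -0.85 to 0.18). Between the MCF10CA1h and MCF10AT1 controls EIF2AK2 turned to 0.31 without MCF10AT1 control replicate c (range -0.52 to 0.31). Counts of genes called moved by over 1.5 times as follows, and the cause was not tested. With the replicate block the 9 genes had 3 calls in MCF10A and 2 in MCF10AT1, and the pathway list 10 and 21; it moved no other count by over 1.5 times, and in MCF10CA1h, where the letters do not pair the libraries, 8 of the 9 genes and 20 pathway genes were called with it. For the controls a block by letter across lines, added after seeing the data, gave 4, 5 and 2 calls, and a block per line was not run since it leaves no residual degrees of freedom. In the joint fit the 9 genes had 3, 2 and 5 calls in MCF10A, MCF10AT1 and MCF10CA1h, and the pathway list 7, 27 and 11. The share of all genes called in these joint comparisons was not determined. At an adjusted p under 0.01 MCF10A had 0 for both lists, the MCF10AT1 pathway list 5, and the control comparisons 1 (MCF10AT1 against MCF10A), 2 (MCF10CA1h against MCF10A) and 0 (MCF10CA1h against MCF10AT1). In MCF10A the 9 genes had 2 calls with no filter and 0 with no intensity trend. With a mean of at least 50 the MCF10A pathway list had 1 and the MCF10CA1h against MCF10AT1 controls 1. With single libraries left out, the 9 genes had 0 to 2 calls in MCF10A, 0 to 1 in MCF10AT1 and 7 to 9 in MCF10CA1h, and the pathway list 0 to 7, 5 to 12 and 16 to 21. The interaction of MCF10AT1 with MCF10A had 2 to 4, and the controls 1 to 5 (MCF10AT1 against MCF10A), 2 to 6 (MCF10CA1h against MCF10A) and 0 to 4 (MCF10CA1h against MCF10AT1). With equal sums, which moves the balance of higher and lower genes in MCF10CA1h, 8 of the 9 genes were called there. The depth behind single genes is unknown, which limits low ones such as TLR3, DHX58 and the interferons most.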
